A study of Rattus norvegicus with 10 samples.

Results

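Solute carriers are membrane proteins that move sugars, amino acids, ions, metals, nucleosides and other small molecules across the plasma membrane and the membranes of organelles. The genes are numbered by family, so that Slc2 genes encode facilitative hexose carriers, Slc7 genes amino acid carriers and Slc25 genes mostly carriers of the inner mitochondrial membrane. In macrophages, including microglia, the resident macrophages of the brain, these proteins set the supply of glucose, arginine, glutamate and iron to the activated cell. The genes described here are those whose single gene symbol in the platform annotation starts with Slc followed by a digit. They number 120 of the 4736 genes with 1 symbol on the array, and they were measured by 181 probe sets, a probe set being the group of array probes that reports 1 transcript. All 181 were found by Entrez identifier among RefSeq's genes for the rat assembly GRCr8, where 0 symbols differed, and 382 protein-coding genes carry such a symbol there. Among those not analysed here are the cystine carrier Slc7a11, the phagosomal metal carrier Slc11a1 and the glutamine carrier Slc1a5. A further 2 probe sets carried an Slc symbol beside another entry and were not named.

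The series asked how cultured rat microglia respond to interferon gamma (IFN-gamma), a cytokine of T cells and natural killer cells. Microglia came from neonatal rat brain, with 1 brain per flask, and were plated on day 15 at 100000 cells per dish in medium with fetal calf serum. The 5 control cultures (1, 2, 3, 5 and 6) received fresh medium, and the 3 IFN-gamma cultures received fresh medium with 100 U/ml IFN-gamma for 16 hours. IFN-gamma culture 1 was measured on 3 arrays, which were averaged, so the comparison rests on 5 against 3 cultures. The strain and sex of the rats are not given in the sources used here, and a culture is a mixed population selected by its growth in a dish.

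A level below is the quantile-normalised value of log2(signal + 16), on which a signal of 0 would be 4, and a fold change is on that scale, which understates the change of dim genes. The deposited signals were dim and not on a common scale, with array medians between 7.4 and 23.7, and between 46 (control culture 3) and 86 (IFN-gamma array 1b) of the 120 genes had a signal above 16. Of 6 measured microglia and macrophage markers, Ctss (10.52), C1qb (8.77), Aif1 (7.81) and C1qc (6.87) lay above the median control level of genes, which was 5.12, while Itgam (4.98) and Csf1r (4.73) lay below it. With IFN-gamma 2 of these markers passed the test: C1qb rose by 1.14 (limma adjusted p = 0.0239) and C1qc by 1.31 (0.0364), and the other 4 had log2 fold changes of 0.15 to 0.79 that did not pass. The list's median was 0.72. Of 5 astrocyte markers Glul (9.08) and the glutamate carrier Slc1a2 (5.40) lay above the median, while Aqp4 (4.84), Aldh1l1 (4.75) and S100b (4.84) lay below it. Of 5 oligodendrocyte lineage markers 3 lay above it, led by Mag (6.28), and of 6 neuronal markers 3 did, led by Snap25 (5.96). Of 4 endothelial markers 2 did, and of 4 lymphocyte markers 1, Cd4, which rat macrophages also express. Cd4 fell with IFN-gamma from 7.56 to 6.53, a log2 fold change of -1.02 (limma adjusted p = 0.00792). Of 5 fibroblast and meningeal markers 4 lay above the median, led by Col1a2 (6.02). This list averaged 5.52 to 5.77 in the control cultures and 5.14 to 5.36 with IFN-gamma. By the brightest probe set 0 of its genes passed, and 1 of 4 probe sets of Col1a1 was called lower. The part of the other cell types, or of the shift in microglial markers, in any result was not tested. In RNA from whole cultures, fewer cells of a type and less RNA per cell cannot be told apart.

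In the control cultures 69 of the 120 solute carrier genes (57.5%) lay above the median level, which by construction 50% of all genes exceed. Their own median was 5.24 and their range 4.18 to 8.44, whereas all genes reached 13.48. The upper quartile was 5.82 over the carriers and 5.80 over all genes, so most genes of the array lay in the same lower part of its range. The signal of a probe set depends on its probes as well as on the transcript, so the levels sort genes only roughly. Of the 43 genes with several probe sets, 24 were above the median by the brightest probe set and at or below it by another.

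The mitochondrial carrier family held the brightest members, with 9 of 12 genes above the median. Slc25a5, the adenine nucleotide translocase of proliferating cells, lay at 8.44 ± 0.48 (SD, n = 5) and Slc25a3, the mitochondrial phosphate carrier, at 8.03 ± 0.555 (SD, n = 5). They were followed by the peroxisomal carrier Slc25a17 (7.18), the dicarboxylate carrier Slc25a10 (7.17), the second adenine nucleotide translocase Slc25a4 (6.71) and the oxoglutarate carrier Slc25a11 (6.54). The other probe sets of Slc25a10 lay at 5.17 and 5.16, and that of Slc25a11 at 4.98, below the median. The carnitine carrier Slc25a20 (4.95) and the carriers Slc25a14 (4.81) and Slc25a23 (4.59) lay below the median.

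**Figure D1:**
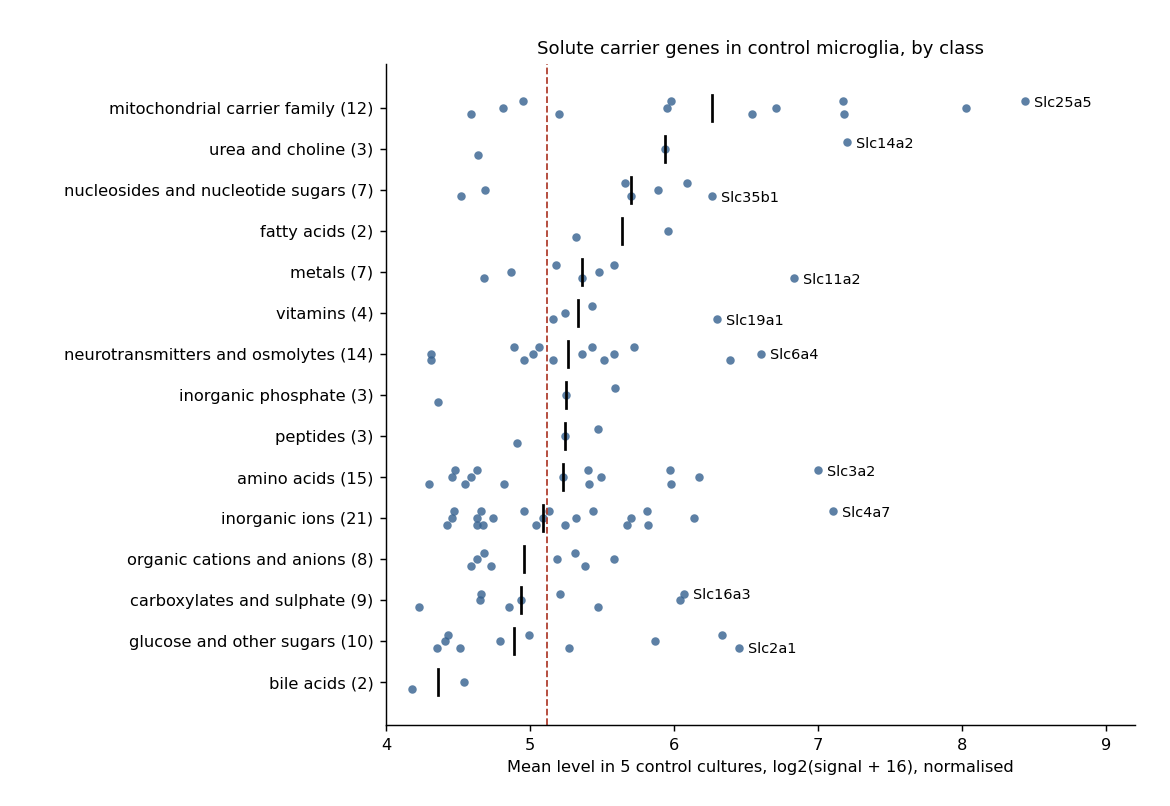
Mean level of each of the 120 solute carrier genes in the 5 control cultures, by class of substrate, with the number of genes of a class in brackets. Points are genes, black ticks class medians, and the dashed line the median of all genes (5.12); the mitochondrial carrier family reaches farthest to the right, led by Slc25a5 at 8.44, and both bile acid carriers lie below the line.

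Among sugar carriers 4 of 10 genes lay above the median. These were Slc2a1 (6.45), the glucose carrier GLUT1 of most cells, Slc5a1 (6.33), a sodium-coupled glucose carrier of the intestine, Slc2a3 (5.87), the glucose carrier GLUT3 of neurons, and Slc37a4 (5.27), which moves glucose phosphate into the endoplasmic reticulum. By their other probe set Slc2a1 (4.97), Slc2a3 (4.52) and Slc37a4 (5.02) lay below the median and Slc5a1 (5.27) above it. Slc2a4 (4.99), Slc2a2 (4.51) and Slc2a5 (4.35), the insulin-responsive, hepatic and fructose carriers, lay below it. Slc2a5, a carrier used as a microglial marker, thus lay close to the floor of the scale in every control culture, between 4.16 and 4.49.

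Of 15 amino acid carriers 8 lay above the median. Slc3a2, the heavy chain that pairs with several light chains at the cell surface, was the brightest at 7.00 ± 0.338 (SD, n = 5), and its partner Slc7a5, a carrier of large neutral amino acids, lay at 5.98. The glutamate carriers Slc1a3 (6.17), Slc1a1 (5.97) and Slc1a2 (5.40) and the cationic amino acid carrier Slc7a1 (5.41) were also above it. The inducible arginine carrier Slc7a2 lay at 4.46 and its relative Slc7a3 at 4.59.

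Of 21 carriers of inorganic ions 10 lay above the median, among them the sodium bicarbonate cotransporter Slc4a7 (7.10), the sodium calcium exchanger Slc8a1 (6.14) and the anion exchanger Slc4a2 (5.82). Of 7 metal carriers 5 did, with the divalent metal carrier Slc11a2 at 6.83 and the iron exporter ferroportin, Slc40a1, at 5.58. The zinc exporter Slc30a1 (4.68) did not. Carriers with known roles in other tissues were above it too, among them the urea carrier Slc14a2 (7.20), the serotonin carrier Slc6a4 (6.60) and the vesicular acetylcholine carrier Slc18a3 (6.39). For Slc14a2 and Slc6a4 the other probe set lay at 4.53 and 4.66, below the median. All 4 vitamin carriers lay above the median by the brightest probe set, led by the reduced folate carrier Slc19a1 (6.30), and both bile acid carriers lay below it. By the other probe set Slc19a1 lay at 4.57 and the vitamin carrier Slc5a6 at 5.00, below the median.

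With IFN-gamma the glucose carrier gene Slc2a1 was the only one of the 120 with a probe set past the threshold, an adjusted p under 0.05 in limma's moderated test over 8740 probe sets. By the brightest probe set of each gene, 0 carriers were higher and 0 lower. Among all genes the same test called 0.887% higher and 0.697% lower, and among all probe sets 1.53% in either direction, so the carriers' counts lie near this background. At an unadjusted p under 0.05 there were 7 carriers higher (5.83%) and 10 lower (8.33%), beside 5.85% and 5.26% of all genes. All IFN-gamma cultures lay above all controls in 3 carriers (2.5%, against 4.16% of all genes) and below them in 5 (4.17%, against 3.65%). With no scaling between arrays these counts were 3 and 1, and with array medians subtracted 3 and 2, so that the lower side depended on the scaling. Estimates of at least 2-fold were found in 1 carrier higher and 3 lower, together 3.33%, beside 2.58% of all genes. The median log2 fold change was -0.10 over the carriers and -0.02 over all genes, and 75 of 120 estimates (62.5%) were below 0, beside 52.9% of all genes. With no scaling between arrays the carriers' median was 0.05, that of all probe sets 0.10, and 48 of the 120 estimates were below 0.

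**Figure D2:**
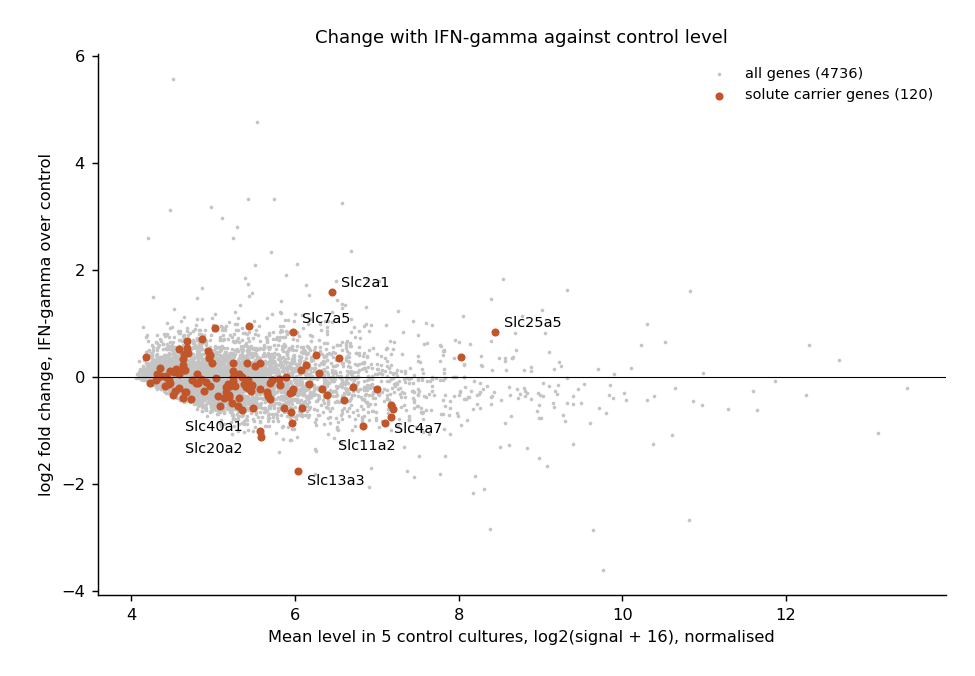
log2 fold change (IFN-gamma over control) against the mean control level for 4736 genes in grey and the 120 solute carrier genes in orange, each by its brightest probe set. The carriers lie between -1.75 (Slc13a3) and 1.59 (Slc2a1), inside the span of all genes, which runs from -3.61 to 5.58.

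Slc2a1 encodes GLUT1, which lets glucose into the cell down its gradient. By its brightest probe set the control cultures 1, 2, 3, 5 and 6 read 6.98, 5.98, 5.89, 6.18 and 7.22, and the IFN-gamma cultures 1, 2 and 3 read 7.90, 8.18 and 8.05. The lowest IFN-gamma culture lay above the highest control. The mean went from 6.45 ± 0.611 (SD, n = 5) to 8.04 ± 0.14 (SD, n = 3), a log2 fold change of 1.59 ± 0.326 SE or 3.02-fold (limma adjusted p = 0.0501). The dimmer probe set read 5.71, 4.97, 4.16, 5.12 and 4.92 in the controls and 6.56, 6.80 and 6.38 with IFN-gamma, also without overlap. It rose by 1.60 (limma adjusted p = 0.0373), so the probe sets fell on either side of the threshold. The controls of the dimmer probe set had signals of 1.2 to 46.7, and the size of its difference depended on the pseudocount, at 2.21 with a pseudocount of 4 and 0.85 with 64. The 3 technical arrays of IFN-gamma culture 1 read 7.48, 8.30 and 7.92 by the brightest probe set, each above every control. Of 20 other settings, 11 kept the dimmer probe set past the threshold. It was lost with no scaling (adjusted p = 0.159), with a pseudocount of 4 (0.11) and with the culture number as a replicate block (0.25), and on omission of control culture 2 (adjusted p = 0.085), 5 (0.0807) or 6 (0.0955) or of IFN-gamma culture 1 (0.158), 2 (0.21) or 3 (0.13). The gene passed in 10 of 21 other settings by the value that represents it, mostly its brightest probe set. The passes include the mean of both probe sets and the setting without probe sets of reduced specificity, which kept only the dimmer. The estimate was above 0 in all of these settings, from 0.85 to 2.21 for the dimmer probe set and from 1.19 to 2.02 for the gene.

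The stretch before the start of Slc2a1 is shown with those of Slc13a3 and Slc7a5, since these are the genes with the smallest adjusted p by their brightest probe set that the promoter table lists (3 of 4, the other being Slc4a7). Each run is the 250 bases 5′ of the gene's start on its own strand, from RefSeq (build GRCr8), at chr5:138002272-138002521 on the plus strand for Slc2a1, chr3:174623894-174624143 on the minus strand for Slc13a3 and chr19:66872413-66872662 on the minus strand for Slc7a5. Capitals mark the letters ACGTG on either strand, a form of the core of the hypoxia response element. Other forms of the core were not searched and are not marked. Where the runs of both strands overlap the capitals read CACGTG, a single stretch matched on both strands.
Slc2a1: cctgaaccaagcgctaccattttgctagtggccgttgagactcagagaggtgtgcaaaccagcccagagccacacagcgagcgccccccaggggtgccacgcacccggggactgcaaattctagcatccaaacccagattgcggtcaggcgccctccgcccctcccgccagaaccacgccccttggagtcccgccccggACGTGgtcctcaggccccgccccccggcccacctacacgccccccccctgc
Slc13a3: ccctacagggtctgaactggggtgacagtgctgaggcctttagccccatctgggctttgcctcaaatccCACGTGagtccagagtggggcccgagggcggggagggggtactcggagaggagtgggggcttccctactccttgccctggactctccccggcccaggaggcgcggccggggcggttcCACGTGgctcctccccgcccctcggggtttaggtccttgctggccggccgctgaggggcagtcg
Slc7a5: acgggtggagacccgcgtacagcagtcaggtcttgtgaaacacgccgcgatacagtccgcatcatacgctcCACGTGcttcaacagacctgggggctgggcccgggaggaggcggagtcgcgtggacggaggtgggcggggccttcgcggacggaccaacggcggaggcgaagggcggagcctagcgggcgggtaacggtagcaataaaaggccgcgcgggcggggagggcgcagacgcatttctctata
The last base of the ACGTG marked in Slc2a1 is base 47 before the start. The interferon-stimulated response element, taken as GAAA and GAAA with any 2 bases between them, was searched on both strands and matched 0 times in these 3 runs. Over all 33469 promoters of the table ACGTG was found in 16.6% and the response element in 3.41%. Over the 112 promoters listed for 101 of the carriers the shares were 29.5% and 3.57%. These are descriptions of the letters in this window.

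The other hexose carriers gave no such difference. Slc2a3 read 5.62, 6.39, 6.08, 6.61 and 4.64 in the controls and 5.22, 5.43 and 5.22 with IFN-gamma, a log2 fold change of -0.58 with a 95% interval from -1.48 to 0.32. The IFN-gamma values lay inside the range of the controls. Slc2a4, Slc2a5 and Slc2a2 had log2 fold changes of 0.26, 0.17 and -0.34, and the sodium-coupled Slc5a1 had -0.23, with adjusted p between 0.69 and 0.958 in the limma fit. Among 11 measured genes of glucose use, which phosphorylate glucose and carry it through glycolysis, 0 passed by the brightest probe set, and the median log2 fold change was 0.47. The hexokinase Hk2 had 0.51 (adjusted p = 0.352), the phosphofructokinase Pfkl 0.82 (adjusted p = 0.355) and pyruvate kinase Pkm 0.47 (adjusted p = 0.437), whereas the regulatory enzyme Pfkfb3 had -0.44 and the lactate dehydrogenase subunit Ldhb -0.17. For the other 6 genes the estimates lay between 0.30 and 0.70, and 1 of 3 probe sets of the phosphoglycerate kinase Pgk1 was called higher. The lactate exporter Slc16a3 had a mean of 6.07 ± 0.508 (SD, n = 5) without IFN-gamma and of 6.21 ± 0.081 (SD, n = 3) after it. For the monocarboxylate carrier Slc16a1 the brightest probe set gave 0.48 and the other -0.20.

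Among 15 amino acid carriers 0 passed in either direction, with a median log2 fold change of -0.13. Slc7a5, which brings in leucine and other large neutral amino acids, read 6.21, 6.0, 5.51, 5.82 and 6.37 in the controls and 6.77, 6.69 and 7.01 with IFN-gamma. The groups did not overlap, and the log2 fold change was 0.84 with a 95% interval from 0.35 to 1.33, but the gene did not pass (adjusted p = 0.131). Its estimate lay between 0.54 and 1.14 in 20 other settings, none of which called it (lowest adjusted p = 0.0722). Its heavy chain Slc3a2 read 6.80, 7.03, 7.42, 6.55 and 7.19 in the controls and 6.80, 6.51 and 7.01 with IFN-gamma, so that only IFN-gamma culture 2 lay outside the control range, just below it, and its other probe set had a log2 fold change of 0.17 against -0.22.

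The carriers of arginine, the substrate of nitric oxide synthase and arginase, gave mixed values. Slc7a1 had log2 fold changes of 0.27, 0.70 and -0.12 by its 3 probe sets, none past the threshold. Slc7a2 stayed near the floor, at 4.46 ± 0.379 (SD, n = 5) and 4.34 ± 0.124 (SD, n = 3). The glutamate carriers Slc1a1, Slc1a2 and Slc1a3 had -0.28, -0.18 and -0.13 by the brightest probe set, with adjusted p between 0.884 and 0.96, although with no scaling Slc1a2 and Slc1a3 were above 0, as Slc1a3 was with array medians subtracted. The other probe sets of Slc1a1 lay at -0.65 and -0.58. In the list of arginine, glutamate and glutathione use 0 of 9 measured genes were higher and 1 lower, the glutamine synthetase gene Glul. It fell 3.15-fold from 9.08 ± 0.303 (SD, n = 5) to 7.42 ± 0.142 (SD, n = 3; limma adjusted p = 0.00301), by 1 of its 4 probe sets. Glul is also an astrocyte marker, and the part of astrocytes in its fall was not tested.

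**Figure D3:**
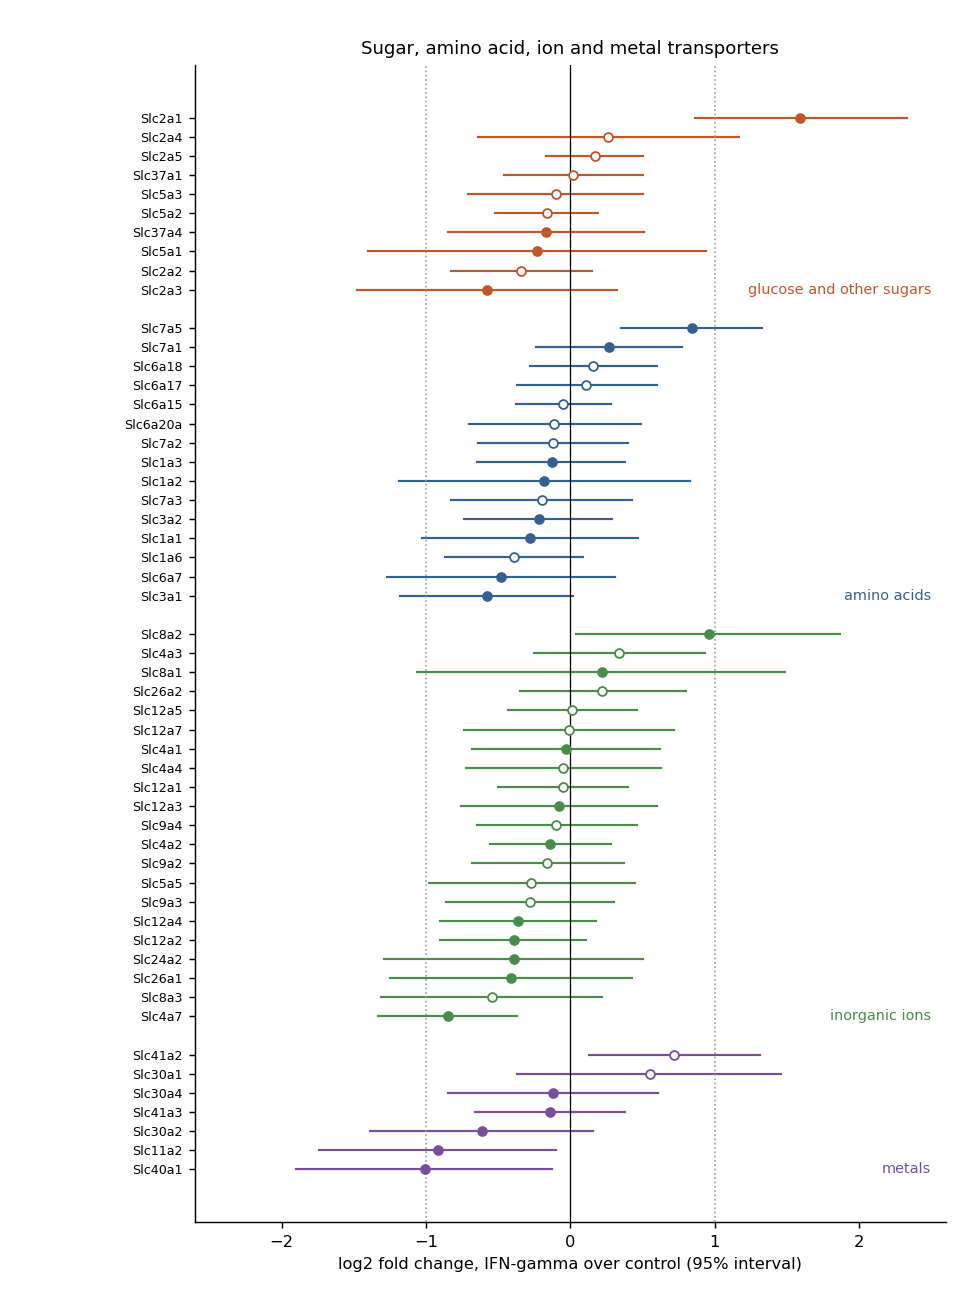
log2 fold change (IFN-gamma over control) with its 95% interval for the 10 sugar, 15 amino acid, 21 ion and 7 metal carriers, by the brightest probe set. Filled points lie above the median level in controls, open points do not, and dotted lines mark 2-fold; Slc2a1 lies farthest to the right at 1.59 and Slc40a1 farthest to the left at -1.01.

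Of 21 ion carriers 0 passed in either direction and 16 had an estimate below 0, with a median of -0.10. Slc4a7, which brings in sodium and bicarbonate and counters acid load, read 6.76, 7.01, 7.48, 7.32 and 6.93 in the controls and 6.50, 6.25 and 5.99 with IFN-gamma. All IFN-gamma cultures lay below all controls, with a log2 fold change of -0.85 (95% interval from -1.33 to -0.37, adjusted p = 0.117). With array medians subtracted it was -0.58 and with no scaling -0.45. The sodium calcium exchangers differed in their estimates. Slc8a2 read 4.71, 5.48, 4.73, 5.62 and 6.63 in the controls and 6.22, 6.52 and 6.44 with IFN-gamma, inside the control range only because of control culture 6 (log2 fold change 0.96, adjusted p = 0.437). Slc8a1 varied most among the control cultures of the genes named here, from 4.88 to 7.37, and its 5 probe sets ran from -0.21 to 0.57. The chloride cotransporter Slc12a2 lay at -0.39 by its brightest probe set and at -0.11, 0.34 and -0.22 by the others. The anion exchanger Slc4a2 lay at -0.14. The sodium pump, which sustains the gradient that many of these carriers use, had 0 of 3 measured subunit genes called, with Atp1b1 at 8.57 ± 0.484 (SD, n = 5) and 8.91 ± 0.757 (SD, n = 3).

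Among 7 metal carriers 0 passed. Both iron carriers had estimates below 0 by every probe set. Slc11a2, which brings ferrous iron into the cytosol from outside and from endosomes, read 7.45, 6.98, 5.79, 6.63 and 7.32 in the controls and 5.56, 6.23 and 5.96 with IFN-gamma. Control culture 3 was the lowest control and lay within the IFN-gamma values. The log2 fold change was -0.92 (95% interval from -1.74 to -0.10, adjusted p = 0.393), and the other probe sets lay at -0.35 and -0.64. Slc40a1, the only known cellular iron exporter, read 6.35, 4.95, 4.78, 6.08 and 5.75 in the controls and 5.13, 4.33 and 4.25 with IFN-gamma, overlapping through control cultures 2 and 3. Its log2 fold change was -1.01 (95% interval from -1.90 to -0.13, adjusted p = 0.377), with -0.64 by the other probe set.

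Over 21 other settings the estimate of Slc40a1 ran from -1.65 to -0.44 and that of Slc11a2 from -1.18 to -0.61, and neither passed in any. In the list of iron handling 0 of 5 measured genes passed, with the transferrin receptor Tfrc at -0.47 (adjusted p = 0.845) and the heme oxygenase Hmox1 at -0.55 (adjusted p = 0.21). Among the zinc and magnesium carriers Slc30a1 had 0.55, Slc30a2 -0.61 and Slc41a2 0.72 (adjusted p = 0.332). In Slc41a2 control culture 1, at 5.58, lay among the IFN-gamma values of 5.57, 5.86 and 5.34, above the other controls.

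The lowest estimate of any carrier was that of Slc13a3, a sodium-coupled carrier of succinate and other dicarboxylates. It read 6.15, 6.77, 4.77, 5.94 and 6.56 in the controls and 4.53, 4.18 and 4.14 with IFN-gamma, so that the IFN-gamma cultures lay below all controls and near the floor. Of the 3 technical arrays behind IFN-gamma culture 1, which read 4.28, 4.19 and 5.13, array 1c lay above control culture 3. The mean went from 6.04 ± 0.779 (SD, n = 5) to 4.29 ± 0.216 (SD, n = 3), a log2 fold change of -1.75 ± 0.404 SE (limma adjusted p = 0.0841). The gene has 1 probe set. It passed in 5 of 21 other settings, among them the omission of control culture 3 (adjusted p = 0.00355). The phosphate carrier Slc20a2 had -1.11 (adjusted p = 0.37). Its control culture 5, at 4.21, lay below every IFN-gamma culture, while the other controls lay between 5.42 and 6.25 and the IFN-gamma cultures between 4.27 and 4.68. Without control culture 5 it passed (log2 fold change -1.46, adjusted p = 0.0296), the only 1 of 21 other settings in which it did. The fatty acid carrier Slc27a1 had -0.85 (adjusted p = 0.412).

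In the mitochondrial carrier family 0 of 12 genes passed and the estimates split, with 6 above and 6 below 0. Slc25a5, which exchanges ADP for ATP across the inner membrane, read 8.90, 8.52, 7.77, 8.15 and 8.85 in the controls and 9.06, 9.31 and 9.49 with IFN-gamma. The groups did not overlap, with a log2 fold change of 0.84 (adjusted p = 0.26), which was 1.53 with no scaling and 1.40 with array medians subtracted. The paralog Slc25a4 had -0.19, which was above 0 with no scaling and with array medians subtracted. Slc25a10, which exchanges dicarboxylates for phosphate, read 6.95, 7.11, 7.18, 6.97 and 7.66 in the controls and 6.32, 6.54 and 6.45 with IFN-gamma. By this brightest probe set the groups did not overlap, with a log2 fold change of -0.74 (adjusted p = 0.146). The other probe sets had -0.13 and -0.69, with overlapping groups. In Slc25a17 the control mean was 7.18 ± 0.341 (SD, n = 5), the treated cultures averaged 6.66 ± 0.125 (SD, n = 3), and the adjusted p was 0.435. In Slc25a3 they were 8.03 and 8.41, with an adjusted p of 0.804.

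**Figure D4:**
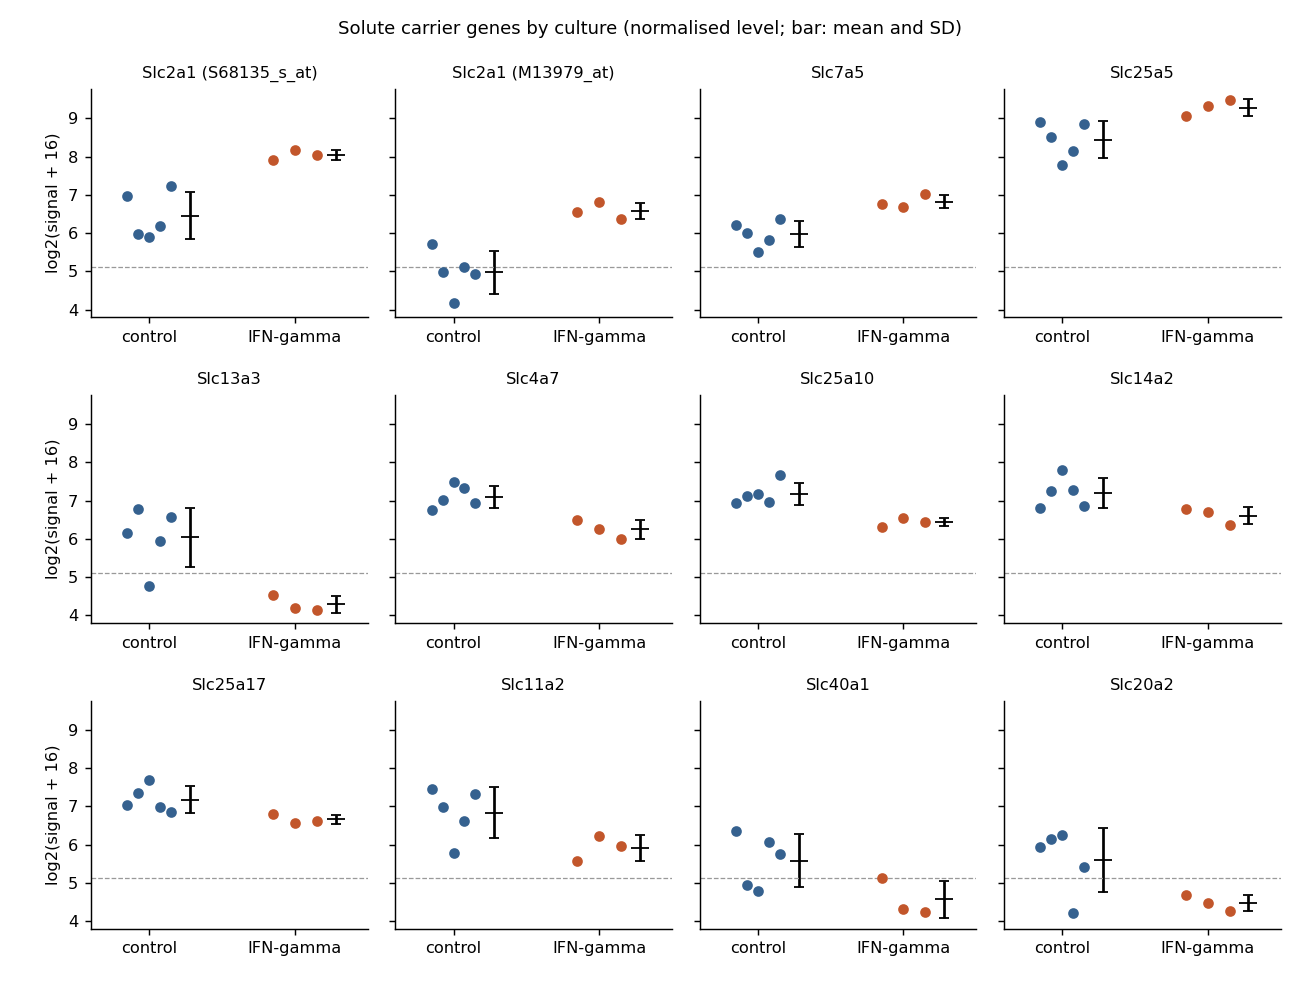
Level in each culture for Slc2a1 (both probe sets) and 10 other carriers, with 5 control cultures in blue, 3 IFN-gamma cultures in orange and the mean with SD beside them. The dashed line is the median control level of genes (5.12); the groups do not overlap in the first 9 panels, from Slc2a1 to Slc25a17, and overlap in Slc11a2, Slc40a1 and Slc20a2.

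The remaining classes held carriers of neurotransmitters, nucleosides, vitamins, urea and organic ions, of which 0 passed. The urea carrier Slc14a2 was the last of the 5 whose IFN-gamma cultures all lay below the controls, at 7.20 ± 0.4 (SD, n = 5) and 6.61 ± 0.227 (SD, n = 3; adjusted p = 0.428), and its dimmer probe set had 0.03. The glycine carrier Slc6a5 had 0.91 (adjusted p = 0.352), and its IFN-gamma cultures read 5.71, 5.16 and 6.90, so that culture 3 stood above the others. The taurine carrier Slc6a6 had a log2 fold change within 0.01 of 0, with a 95% interval from -0.73 to 0.73. The nucleoside carriers Slc28a2 and Slc29a1 had -0.58 and -0.10. In Slc35b1, a carrier of the endoplasmic reticulum, the probe sets had 0.42 and 1.24, and in the folate carrier Slc19a1 they had 0.08 and 0.88. In both genes the dimmer probe set was the one whose IFN-gamma cultures lay above all controls (adjusted p = 0.166 and 0.135). Of the 43 carriers with several probe sets, 29 had the same sign in all of them. Of the organic anion carriers of the Slco family, 0 of 5 measured passed.

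The precision set what could be seen. For 71 of the 120 carriers the 95% interval lay inside 2-fold in either direction, but among the 78 above the median in either group this held for 34. The interval of the median carrier reached 0.62 to each side on the log2 scale. For the other genes above the median a 2-fold difference on this scale was not excluded with 5 and 3 cultures. Since the scale understates the change of dim genes, an interval inside 2-fold does not exclude a 2-fold change of their signal. Genes near the floor of the scale are therefore not shown to be unchanged.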

How the data were processed

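RNA from 10 arrays was analysed. In the deposited table each probe set has a linear signal intensity on every array. MAS5 and GCRMA appear in the submitters' processing notes without a version, with no word on which of them made the values. Of 8799 probe sets, 59 array controls were left out. From the intensities log2(signal + 16) was computed, quantile normalised over the 10 arrays and averaged over the 3 technical arrays. The groups were compared by a two-sided moderated test in limma 3.58.1 (R 4.3.3), fitted with lmFit and eBayes on the group alone. P-values were adjusted by Benjamini-Hochberg over 8740 probe sets. A gene is represented by its probe set with the highest mean over the 8 cultures. The number of arrays limits the precision. The part of MAS5 or GCRMA in the low values was not tested.

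Named genes were every carrier past the threshold, the 10 with the highest control mean, the 6 largest increases and 6 largest decreases above the median, and a fixed set of metabolic carriers. Others are named as examples of their class, chosen after their values were seen. Members, lists and settings were chosen with earlier results of these data known. Cultures 1, 2 and 3 occur in both groups, but the labels tie no number to a shared brain. The alternatives varied scaling, pseudocount, filter, probe sets, technical arrays, variance model, block and replicates. A further promoter motif is not reported here.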

Additional observations from a re-analysis of the deposited data

Results flagged for a closer look

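Among the control cultures of 37 named genes, 3 held a value far from the other 4 by Dixon's criterion, where chance flags about 1 in 20 groups. For the phosphate carrier Slc25a3 control culture 3 read 7.06 and the others 8.19 to 8.44. For the zinc exporter Slc30a1 control culture 2 read 5.93 and the others 4.27 to 4.45, below its IFN-gamma values of 5.40, 5.68 and 4.61. For the arginine carrier Slc7a2 control culture 5 read 5.12 and the others 4.19 to 4.41. Control culture 3 had the lowest array median, at 7.4.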

How the results depend on the processing

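Carriers called higher by the brightest probe set were 0 and became 1 (Slc2a1) with array medians subtracted, a trimmed mean, a pseudocount of 64, a signal above 16 on at least 3 arrays, no probe sets of reduced specificity, the mean of a gene's probe sets, array 1b alone or the intensity trend, and 0 to 1 when a culture was left out. Carriers called lower were 0 and became 1 (Slc13a3) with array medians subtracted, a pseudocount of 4, the signal filter or the trend, by any probe set too, and 0 to 1 when a culture was left out. By any probe set 1 was called higher, 0 with no scaling, with a pseudocount of 4 and with the replicate block, and 0 to 1 when a culture was left out. Carriers above the median were 69, 74 against the median of all probe sets and 45 of 92 with the signal filter. Carriers whose groups did not overlap were 8, 4 with no scaling, 5 with array medians subtracted and 9 to 18 when a culture was left out, since fewer cultures overlap less. The cause of other shifts was not tested.

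As a block the culture number left 0 carriers called and 22 of 8740 probe sets against 134. Same-numbered cultures correlated at -0.03, 0.00 and -0.01 in their deviations from the group means, so the numbers were not taken as pairs. Probe sets called were 39 with no scaling, 59 without probe sets of reduced specificity, and 68 to 154 when a culture was left out. Of 37 named genes 25 kept their sign in all settings that measured them.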

Other observations

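The 3 technical arrays of IFN-gamma culture 1 differed among themselves by a median SD of 0.338 over the 120 carriers, beside 0.424 over the 5 control cultures.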
